A study of Mus musculus with 6 samples.

Results

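Homeostatic microglia genes are transcripts that are high in resting microglia, the resident macrophages of the brain. Some of them, such as Csf1r and Cx3cr1, are also expressed by other brain macrophages. The 9 genes followed here were P2ry12, Tmem119, Cx3cr1, Csf1r, Siglech, P2ry13, Gpr34, Selplg and Fcrls, out of 32285 measured genes. They were chosen by name as a known set, and all 9 were found once in the gene symbols of the deposited tables. Spatial transcripts were counted with Visium, in which barcoded spots capture the RNA of the tissue placed over them and each unique molecular identifier (UMI) stands for 1 captured molecule. The 6 coronal sections, cut at 16 µm from frozen brains, came from males of the inbred strain C57BL/6J, with no allele or treatment named in the labels. Mice were 6 (young), 18 (middle) or 21 months old (old), with 2 sections at each age. Both young sections were on slide 1 with middle 1 and old 1, while middle 2 and old 2 shared slide 2, so slide and age were partly confounded. The labels give 2 males per age, and each section was taken as 1 animal, so the p-values measure the spread between these sections. With 2 sections per age, the tests rest on 3 residual degrees of freedom.

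Microglia survive through the receptor Csf1r, which binds the ligands Csf1 and Il34. They survey the tissue with fine processes that respond to nucleotides through P2y receptors and to the neuronal chemokine fractalkine, the product of Cx3cl1, through Cx3cr1. In resting microglia these surface receptors are highly transcribed, and in mice with injury, demyelination or amyloid several of them fall while a set of lysosomal and lipid-handling genes rises. White matter microglia have been described as more reactive with age than those of grey matter.

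The promoter sequences of the genes that stood at the opposite ends of the age comparison in white matter are shown first, as the reference for the members described below. The promoter table used here, from RefSeq on GRCm38.p6, matched 5 of the 9 genes (P2ry12, P2ry13, Cx3cr1, Siglech and Fcrls). Each sequence below is the 250 bases before the gene's start in RefSeq, 5′ to 3′ along the gene's strand. Capitals mark the motif GAGGAAG, a core of sites bound by the myeloid factor PU.1, searched on both strands. The promoters of Fcrls (chr3:87263525-87263774, minus strand) and Cx3cr1 (chr9:120068297-120068546, minus strand) belong to genes called higher in old white matter, and those of P2ry12 (chr3:59262986-59263235, minus strand) and Siglech (chr7:55767934-55768183, plus strand) to genes with the 2 smallest changes there.
Fcrls: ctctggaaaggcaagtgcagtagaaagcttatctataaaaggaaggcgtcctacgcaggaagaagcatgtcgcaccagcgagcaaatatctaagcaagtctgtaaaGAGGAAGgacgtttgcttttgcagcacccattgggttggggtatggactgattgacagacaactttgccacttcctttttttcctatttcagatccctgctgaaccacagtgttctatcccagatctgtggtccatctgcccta
Cx3cr1: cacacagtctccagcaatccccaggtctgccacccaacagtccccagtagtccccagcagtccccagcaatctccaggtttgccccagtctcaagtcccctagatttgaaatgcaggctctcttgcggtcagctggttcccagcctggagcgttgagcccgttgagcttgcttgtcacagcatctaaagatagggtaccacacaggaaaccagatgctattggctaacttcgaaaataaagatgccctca
P2ry12: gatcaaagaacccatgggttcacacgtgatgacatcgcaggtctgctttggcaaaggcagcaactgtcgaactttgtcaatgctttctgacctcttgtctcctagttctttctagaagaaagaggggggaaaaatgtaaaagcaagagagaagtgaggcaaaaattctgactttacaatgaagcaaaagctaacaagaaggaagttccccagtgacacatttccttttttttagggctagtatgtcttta
Siglech: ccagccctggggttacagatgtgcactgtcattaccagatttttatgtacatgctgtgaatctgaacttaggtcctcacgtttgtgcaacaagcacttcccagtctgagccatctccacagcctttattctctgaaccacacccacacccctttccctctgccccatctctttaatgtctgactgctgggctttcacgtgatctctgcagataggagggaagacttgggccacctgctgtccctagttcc
The motif GAGGAAG lay 144 bases before the RefSeq start of Fcrls and, in the promoter of P2ry13 (not printed), 48 bases before the RefSeq start. The other 3 windows held neither GAGGAAG nor the variant GGGGAAG on either strand. Of 32851 promoter windows of that length, 10.6% held GAGGAAG, 8.55% held GGGGAAG and 18.0% held either, so a match is common among promoters and is given as a description only.

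Several members are neighbours or share a locus with another gene. On chromosome 3 (GRCm38, GENCODE M21), P2ry13 (59207892 to 59210882) and P2ry12 (59216272 to 59262871) both lie on the minus strand inside the span of Med12l, which is transcribed from the other strand. On the X chromosome, Gpr34 (13632089 to 13640858, plus strand) lies inside the span of Cask on the opposite strand. On chromosome 5, Tmem119 (113793729 to 113800516) and Selplg (113818536 to 113832644) lie on the same strand close to each other. Among the genes called with age, the span of Cx3cr1 on chromosome 9 (119901616 to 120069879, minus strand) overlaps 9 annotated genes, of which Gorasp1, Csrnp1 and Xirp1 are on its own strand. The span of Csf1r overlaps Hmgxb3 on the opposite strand and the microRNA gene Mir6983 on its own. No other gene overlaps the span of Fcrls. These spans do not all begin at the RefSeq starts used for the promoters above. The promoter window of Cx3cr1 lies wholly inside its span, and that of Siglech partly. The window of Fcrls also lies partly inside its span, which ends at 87263738, and the motif falls in that part. The way the authors' counting used strand is not given in the sources used here, so reads of a member and of an overlapping gene may not be fully told apart. In whole sections Med12l stayed between 17.2 and 19.2 UMIs per 1000000 UMIs of the section (CPM) and Cask between 37.8 and 39.7 CPM, and for both genes the old values overlapped the young ones. Levels of the genes that overlap Cx3cr1 and Csf1r were not read, nor were those of Med12l and Cask by region.

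The sections held 2573 to 2973 spots and between 60938938 and 77557934 UMIs. The median UMIs per spot was 30093 and 26306 in young, 26099 and 25905 in middle and 21766 and 20370 in old sections, so both old sections were the shallowest. Spots were grouped into 23 clusters by their transcripts, without the members or other microglial, immune, interferon, mitochondrially encoded and haemoglobin genes. Clusters were given 8 region names from marker genes, and a cluster of 1052 spots led by Ptgds, a gene of the leptomeninges and of oligodendrocytes, was kept under its leading gene because meningeal markers (5 of its 50 leading genes) barely outnumbered isocortical ones (4). A further 5 clusters got no name and were left out of the regions, with 286 to 442 spots per section. Among them were 1 of 810 spots with 10 white matter and 4 hypothalamic markers among its 50 leading genes, and 1 of 101 spots with 8 and 2. These were kept out of white matter because their first leading genes were not white matter markers, a condition added after the clusters were seen. White matter with both of these clusters included was not fitted. White matter was formed by a cluster of 1492 and a cluster of 524 spots, both named from their white matter markers, and held between 295 and 373 spots per section. A spot mixes cells of several types, so fewer microglia and less transcript per microglia cannot be told apart in any value below.

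All 9 genes were captured in every section, from 378 to 489 UMIs per section for P2ry13 to 3546 to 3990 for Csf1r. Relative to all UMIs of the spots, all 9 genes were higher in white matter than in the other spots of the same sections. The excess ran from 0.74 on the log2 scale for Fcrls (SE 0.24, edgeR adjusted p = 0.0366) to 1.39 for Csf1r (SE 0.09, edgeR adjusted p = 6.055e-08) and 1.39 for Selplg (SE 0.06, edgeR adjusted p = 4.419e-14), with a median of 1.09. Of all genes tested in that comparison, 35.6% were called higher in white matter, and the median of all genes was -0.01. The reverse held in the isocortex, where all 9 genes were lower than in the other spots, by -0.29 (Fcrls) to -0.65 (Csf1r) with a median of -0.54, against 38.2% of all genes called lower there. Counted per 100 spots, which differ in depth between regions, the order was not the same at all ages. The 9 genes summed to 408 and 380 UMIs per 100 spots in young white matter and to 575 and 608 in young isocortex. In middle sections these were 620 and 560 in white matter and 601 and 519 in isocortex, and in old sections 539 and 612 against 504 and 433. For Fcrls the call in white matter was lost without young 1, middle 2 or old 1, which left 8 genes. Its excess also differed by age. In white matter against the whole section, Fcrls was at 20.6 against 16.8 CPM in young 1 and 19.0 against 18.9 in young 2. In middle sections it was at 19.8 against 18.1 and 21.0 against 18.55, and in old sections at 36.4 against 20.4 and 58.2 against 23.2.

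The remaining regions lay between these ends. In the Ptgds-led spots all 9 genes were called higher (24.3% of all genes were), with a median log2 difference of 0.77, and Fcrls had its largest excess there, at 0.88. In the hippocampal formation all 9 were called higher (26% of all genes), with a median of 0.45, and in the striatum 8 were (26.1% of all genes), with Tmem119 at 0.20 the exception. In the hypothalamus 7 were called lower (32.1% of all genes), in the thalamus 4 (32.6% of all genes) and in the amygdala and olfactory cortex only Csf1r (22.3% of all genes). Spots of the choroid plexus and ventricle split the set. Csf1r was called higher there by 0.37 (32% of all genes were higher), while P2ry12 and Fcrls were called lower by -0.39 and -0.54 (35.9% of all genes were lower).

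**Figure D1:**
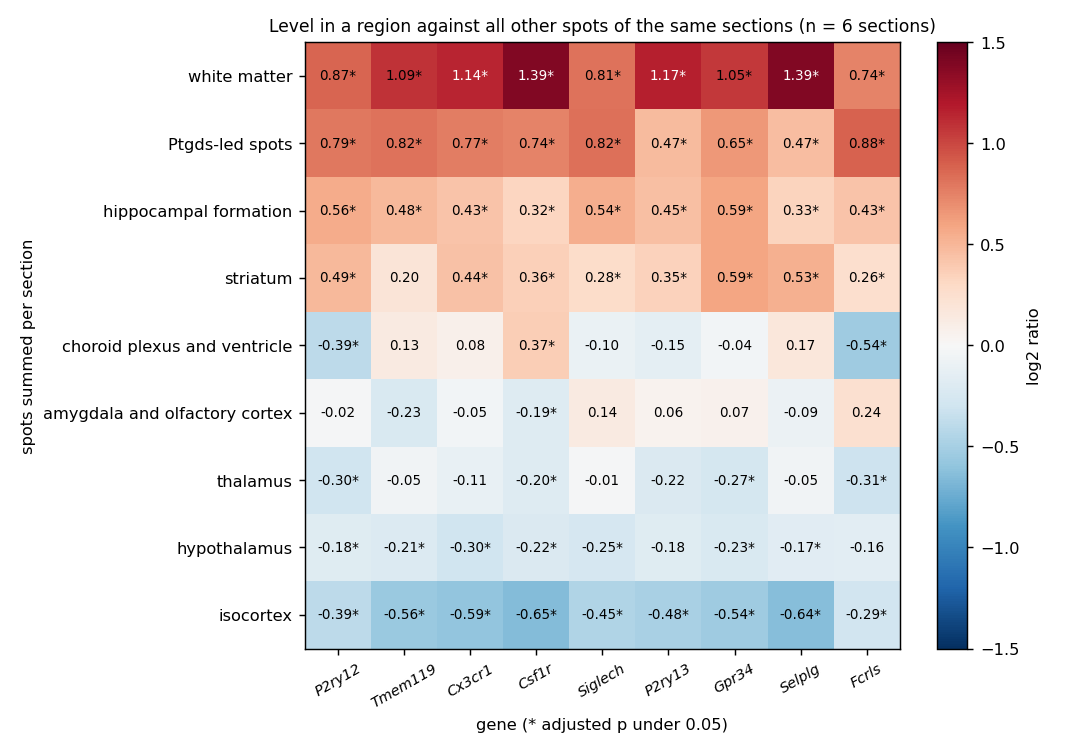
Heat map of the log2 ratio of each gene's level in a region to its level in all other spots of the same sections (n = 6 sections), with regions as rows, genes as columns and an asterisk where edgeR's adjusted p was under 0.05. White matter holds the highest ratios for Csf1r and Selplg (1.39 each), and the isocortex row is below 0 for all 9 genes.

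The order of regions was steady for the summed level and less so for single genes. The summed CPM of the 9 genes was highest in white matter in 6 of 6 sections and lowest in the isocortex in 5 of 6, with the thalamus lowest in young 1. Over 6 sections it was 361 ± 67 CPM (SD, n = 6) in white matter, 286 ± 22 in the Ptgds-led spots, 232 ± 29 in the hippocampal formation, 229 ± 26 in the striatum, 195.5 ± 51 in the choroid plexus and ventricle, 177 ± 9.6 in the amygdala and olfactory cortex, 167 ± 20 in the thalamus, 167 ± 14 in the hypothalamus and 142 ± 3.4 in the isocortex. From the hippocampal formation to the hypothalamus, neighbours in this order differed by less than the larger of their SDs, which include the spread between ages. Csf1r, P2ry13 and Selplg were highest in white matter in 6 of 6 sections, and Cx3cr1 and Tmem119 in 5 of 6. P2ry12 and Fcrls were instead highest in the Ptgds-led spots in 4 of 6 sections. Gpr34 had no steady place, being highest in white matter in 3, in the striatum in 2 and in the Ptgds-led spots in 1 of 6 sections.

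Markers of border-associated macrophages, which line the meninges and vessels and also express Csf1r and Cx3cr1, moved with part of this order. Their 9 genes summed to between 40.9 and 77.8 CPM in the Ptgds-led spots, 19.9 and 48.3 in the choroid plexus and ventricle, 14.6 and 31.7 in white matter and 11.96 and 15.7 in whole sections. In the Ptgds-led spots Mrc1, a mannose receptor of these macrophages, was at 7.35 to 12.7 CPM and Pf4 at 3.55 to 21.4 CPM. The part of these cells in the level of the 9 genes there was not tested. Monocyte markers summed to at most 5.18 CPM in the Ptgds-led spots and 1.44 CPM in white matter, and reached 15.9 CPM in the choroid plexus and ventricle of middle 1.

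Over the whole section, none of the 9 genes was called between ages. In old against young sections all 9 fitted log2 changes were above 0, from 0.01 (Siglech) to 0.33 (Cx3cr1) with a median of 0.18, while the median of all genes was 0.00 and 49.3% of them were above 0. edgeR called 0 of 9 members and 0.164% of 17673 genes, and 5 members (Selplg, Tmem119, Cx3cr1, P2ry13 and Fcrls) had an unadjusted p under 0.05, as did 2246 of all genes. In middle against young sections all 9 were again above 0, with a median of 0.17. There edgeR called 0 members and 0.0679% of all genes, and 4 members (P2ry13, Selplg, Tmem119 and Gpr34) had an unadjusted p under 0.05, as did 1382 of all genes. In old against middle sections 5 of 9 were above 0, and edgeR called 0 members and 0% of all genes. Only Fcrls had an unadjusted p under 0.05 among the members, and 361 of all genes did. DESeq2 also called 0 members in each of these comparisons. The sign of Siglech from young to old turned to -0.0551 with equal numbers of spots of each region and to -0.0111 after thinning. These comparisons share the young or the middle sections and are not independent of each other.

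The section values show how small these differences were. Selplg, whose product binds selectins, was at 21.4 and 25.3 CPM in young, 27.5 and 28.0 in middle and 29.6 and 28.9 in old sections. Both young sections lay below all 4 older ones, and the old against young log2 change was 0.27 (SE 0.07, edgeR adjusted p = 0.209). Cx3cr1 was at 12.8 and 16.8 CPM in young, 17.6 and 17.5 in middle and 19.2 and 19.1 in old sections. The lowest value belonged to young 1, and without young 2 Cx3cr1 passed the threshold in old against young sections (log2 0.51, edgeR adjusted p = 0.046). Tmem119, a membrane protein that in brain marks microglia, was at 17.2 and 17.2 CPM in young, 19.6 and 19.8 in middle and 20.1 and 20.4 in old sections, with no overlap between ages. P2ry12, the ADP receptor of microglial processes, was at 25.6 and 27.3 CPM in young, 28.8 and 29.3 in middle and 28.2 and 27.7 in old sections. The old values of P2ry12 lay between the other ages, and the old against young change was 0.03 (SE 0.05).

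Csf1r was at 47.1 and 50.7 CPM in young, 49.5 and 53.0 in middle and 52.5 and 58.2 in old sections, where only old and young did not overlap. Fcrls was at 16.8 and 18.9 CPM in young, 18.1 and 18.5 in middle and 20.4 and 23.2 in old sections, with both old sections on top. P2ry13 was at 4.92 and 5.09 CPM in young, 6.41 and 6.31 in middle and 6.04 and 6.70 in old sections, so the young sections were lowest and the older ones overlapped. Gpr34 ran from 9.61 to 10.3 CPM in young and from 11.1 to 11.8 in the 4 older sections. Siglech ran from 10.4 to 12.4 CPM over all sections, with its lowest value in old 2 and the next in young 2, so its ages overlapped.

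The summed CPM of the 9 genes was 167 and 182 in young, 191 and 196 in middle and 199.5 and 206 in old sections, with no overlap between ages. The ratio of the old to the young mean was 1.12 after scaling by TMM factors, edgeR's correction for library composition, and 1.16 without them. These levels are relative to all UMIs of a section, of which mitochondrially encoded transcripts took 16.5% and 14.004% in young, 15.4% and 14.005% in middle and 13.3% and 13.5% in old sections. Per 100 spots, P2ry12 gave 76.5 and 75.6 UMIs in young, 80.3 and 78.7 in middle and 65.6 and 59.0 in old sections, so its captured molecules per spot were lowest in the shallow old sections. The sum of the 9 was also lowest there, with 499 and 502 UMIs per 100 spots in young, 534 and 528 in middle and 463 and 439.5 in old sections. Its rise from young to old whole sections therefore holds relative to all UMIs and not per spot, while middle sections exceeded young ones on both scales. The part of depth and of the mitochondrial share in these values was not tested.

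**Figure D2:**
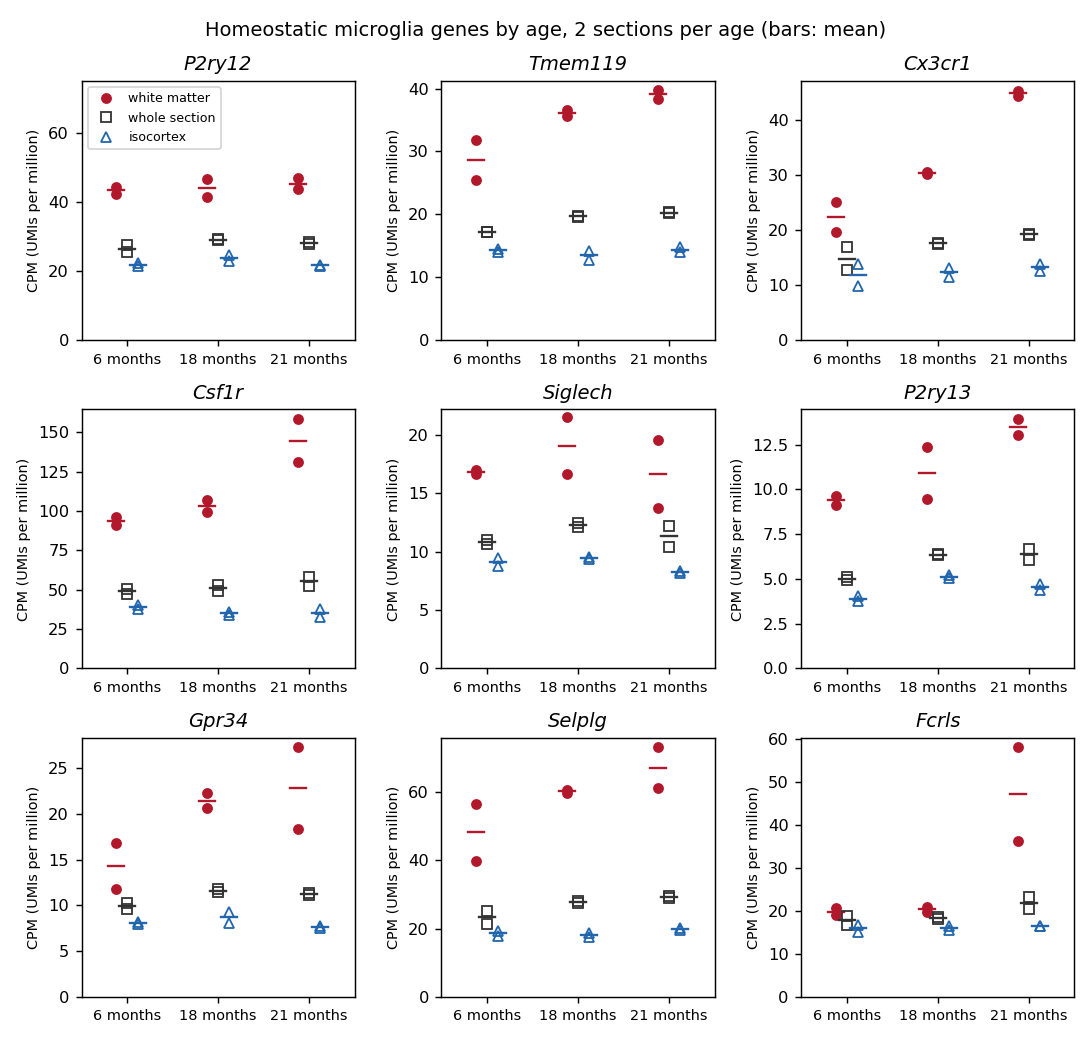
CPM (UMIs per 1000000 UMIs, linear axes from 0) of each gene in white matter (filled circles), whole sections (squares) and isocortex (triangles) at 6, 18 and 21 months, 1 point per section and a bar at the mean of 2. In white matter the old sections of Cx3cr1, Csf1r and Fcrls stand above all others, while P2ry12 stays between 41.5 and 46.8 CPM.

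In old against young white matter 3 of 9 genes were called higher, namely Cx3cr1, Csf1r and Fcrls, and none lower, against 1.23% of 13194 genes called higher. The median change of the 9 was 0.48 and that of all genes 0.00, 8 of 9 were above 0, and 7 had an unadjusted p under 0.05, as did 1499 of all genes. The 3 called genes encode the fractalkine receptor, the Csf1 receptor and an Fc receptor-like scavenger molecule that in mouse marks microglia.

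Cx3cr1 was at 19.6 and 25.0 CPM in young (92 and 117 UMIs), 30.1 and 30.5 in middle (158 and 148 UMIs) and 44.4 and 45.3 in old white matter (204 and 214 UMIs). The 3 ages did not overlap, and the middle sections lay between the others. Its old against young log2 change was 0.96 (SE 0.14, edgeR adjusted p = 0.0001644), with 0.40 (SE 0.15, edgeR adjusted p = 0.176) from young to middle. On slide 1 alone the old section stood 0.99 above the mean of the young ones on the log2 scale, and old exceeded middle by 0.56 on slide 1 and 0.57 on slide 2.

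Csf1r was at 91.4 and 96.3 CPM in young, 106.9 and 99.6 in middle and 131 and 158 in old white matter. Old sections were above all 4 others, and middle sections were just above the young. The old against young change was 0.58 (SE 0.10, edgeR adjusted p = 0.00193), and the change from young to middle was 0.10 (SE 0.11). Without old 2 the old against young change of Csf1r was 0.43 and no longer passed (edgeR adjusted p = 0.128). On slide 1 alone old exceeded young by 0.48, and old exceeded middle by 0.29 on slide 1 and 0.67 on slide 2.

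Fcrls was at 20.6 and 19.0 CPM in young, 19.8 and 21.0 in middle and 36.4 and 58.2 in old white matter, with 167 and 275 UMIs in old sections. Young and middle overlapped, and both old sections stood apart, old 2 well above old 1. Its old against young change was 1.204 (SE 0.19, edgeR adjusted p = 0.00285) and that from young to middle 0.00 (SE 0.22). Without old 2 the old against young change was 0.82, and without old 1 it was 1.501, both still called. On slide 1 alone old exceeded young by 0.87.

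In old against middle white matter 2 of 9 genes were called higher (0.197% of all genes were), Fcrls by 1.21 (edgeR adjusted p = 0.0121) and Csf1r by 0.48 (edgeR adjusted p = 0.0494). Cx3cr1 was at 0.56 (edgeR adjusted p = 0.0712). Middle and old sections of the same number shared a slide, and with the replicate number as a block Cx3cr1 was called as well (0.56, edgeR adjusted p = 0.0365), while with slide as a block it was not (adjusted p = 0.0645). These 2 calls depended on single sections, and 0 members were called without middle 1, without middle 2 or without old 2. Without old 2 the values were 0.82 for Fcrls (adjusted p = 0.128) and 0.33 for Csf1r (adjusted p = 0.916), from edgeR. In middle against young white matter 0 of 9 genes were called, while edgeR called 1.88% of all genes, and 3 members (Cx3cr1, Gpr34 and Selplg) had an unadjusted p under 0.05, as did 1906 of all genes. DESeq2 called 0 members there. In old against middle white matter DESeq2 did not call Csf1r (adjusted p = 0.0984) and gave no adjusted p for Fcrls and Cx3cr1.

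The other 6 members did not pass the test in old white matter. Among the nucleotide and lipid receptors, P2ry12 was at 44.2 and 42.4 CPM in young, 41.5 and 46.7 in middle and 46.8 and 43.6 in old white matter. All 3 ages overlapped, and its old against young change was 0.01 (SE 0.12). P2ry13, a second ADP receptor, was at 9.14 and 9.63 CPM in young, 12.4 and 9.47 in middle and 13.1 and 13.96 in old white matter. Old was above young without overlap, but with 43 and 45 UMIs in the young sections the change of 0.48 had an SE of 0.22 (edgeR adjusted p = 0.395). Gpr34, a receptor for lysophosphatidylserine, was at 16.8 and 11.8 CPM in young, 22.3 and 20.6 in middle and 18.3 and 27.3 in old white matter. Middle and old overlapped, and old exceeded young by 0.62 (SE 0.21, edgeR adjusted p = 0.177). Without old 1 Gpr34 was called (0.88, edgeR adjusted p = 0.0213).

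Among the adhesion and membrane proteins, Selplg was at 40.0 and 56.7 CPM in young, 60.8 and 59.7 in middle and 73.2 and 61.1 in old white matter. The ages did not overlap, young 1 was the lowest, and the old against young change was 0.43 (SE 0.13, edgeR adjusted p = 0.132). Without young 2 Selplg was called (0.66, edgeR adjusted p = 0.0153). Tmem119 was at 31.9 and 25.5 CPM in young, 36.6 and 35.6 in middle and 39.9 and 38.3 in old white matter, also without overlap (0.39, SE 0.14, edgeR adjusted p = 0.211). Siglech, a sialic acid-binding lectin of microglia and plasmacytoid dendritic cells, was at 17.0 and 16.7 CPM in young, 21.5 and 16.7 in middle and 19.6 and 13.8 in old white matter. Its lowest and near-highest values were both in old sections, and the change was -0.07 (SE 0.20). Of 5 markers of plasmacytoid dendritic cells, which summed to between 71.7 and 122 CPM in white matter, Ccr9 had 0 or 1 UMI and Klk1 had 0 UMIs per section. Only 2 could be tested, and Cox6a2 was called higher in old against young white matter (0.82). The same markers summed to between 210 and 270 CPM in the isocortex. Neuronal markers were at 5992 to 6519 CPM there, against 1747 to 2488 in white matter. Whether the sum or the Cox6a2 call reflects dendritic cells was not tested.

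These unequal changes moved the make-up of the set. As a share of the summed UMIs of the 9 genes in white matter, P2ry12 was 14.6% ± 0.87 (SD, n = 2) in young, 12.8% ± 1.4 in middle and 10.3% ± 1.1 in old sections. Siglech was 5.68% ± 0.24 in young, 5.51% ± 0.86 in middle and 3.81% ± 1.2 in old. Over the same ages Cx3cr1 was 7.496% ± 1.1, 8.76% ± 0.29 and 10.2% ± 0.47, and Fcrls was 6.69% ± 0.57, 5.90% ± 0.39 and 10.6% ± 2.9. In all 4 cases the old values did not overlap the young ones, nor did they for P2ry13 (3.15% and 3.18% in young, 3.09% and 3.04% in old). Those of Tmem119, Csf1r, Gpr34 and Selplg overlapped. The shares are parts of 1 total, so larger shares of some genes mean smaller shares of others. No share over all genes stands beside these overlaps, which are a description only. In the isocortex the share of P2ry12 was 15.3% ± 0.37 in young and 15.3% ± 0.10 in old sections.

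The age change in white matter was set directly against the age change in all other spots of the same sections. For 3 genes the old against young change was larger in white matter, against 0.46% of all genes: Fcrls by 1.07 on the log2 scale (SE 0.17, edgeR adjusted p = 0.0002877), Cx3cr1 by 0.73 (SE 0.15, edgeR adjusted p = 0.00393) and Csf1r by 0.54 (SE 0.10, edgeR adjusted p = 0.00156). Without old 2 none of these 3 differences passed, with Fcrls at 0.75 (adjusted p = 0.0541), Cx3cr1 at 0.71 (adjusted p = 0.0598) and Csf1r at 0.45 (adjusted p = 0.12) from edgeR. Cx3cr1 was also not called without young 2 (0.71, edgeR adjusted p = 0.0754), and DESeq2 called only Fcrls. Gpr34 had a difference of 0.56 that did not pass (edgeR adjusted p = 0.311), and the median over the 9 genes was 0.24.

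In the isocortex the difference ran the other way for Csf1r, whose age change was lower than in all other spots by -0.39 (SE 0.07, edgeR adjusted p = 0.0375), against 0.0886% of all genes called lower. Csf1r was at 37.9 and 40.2 CPM in young, 34.0 and 36.1 in middle and 32.8 and 37.4 in old isocortex. Old and young did not overlap, but within the isocortex the old against young change of -0.19 (SE 0.08) did not pass (edgeR adjusted p = 0.416). The other spots include white matter, where Csf1r was called higher with age, and this difference was not refitted under other settings. For the 7 other regions none of the 9 genes had an age change that differed from the rest, and edgeR called 0% of all genes in the hippocampal formation, 0.0119% in the thalamus, 0% in the hypothalamus, 0.0176% in the striatum, 0.0294% in the amygdala and olfactory cortex, 0.102% in the choroid plexus and ventricle and 0.223% in the Ptgds-led spots. Members with an unadjusted p under 0.05 numbered 2 in the hypothalamus (Cx3cr1 at -0.64 and Fcrls at -0.33) and 1 each in the striatum, the amygdala and olfactory cortex and the choroid plexus and ventricle.

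**Figure D3:**
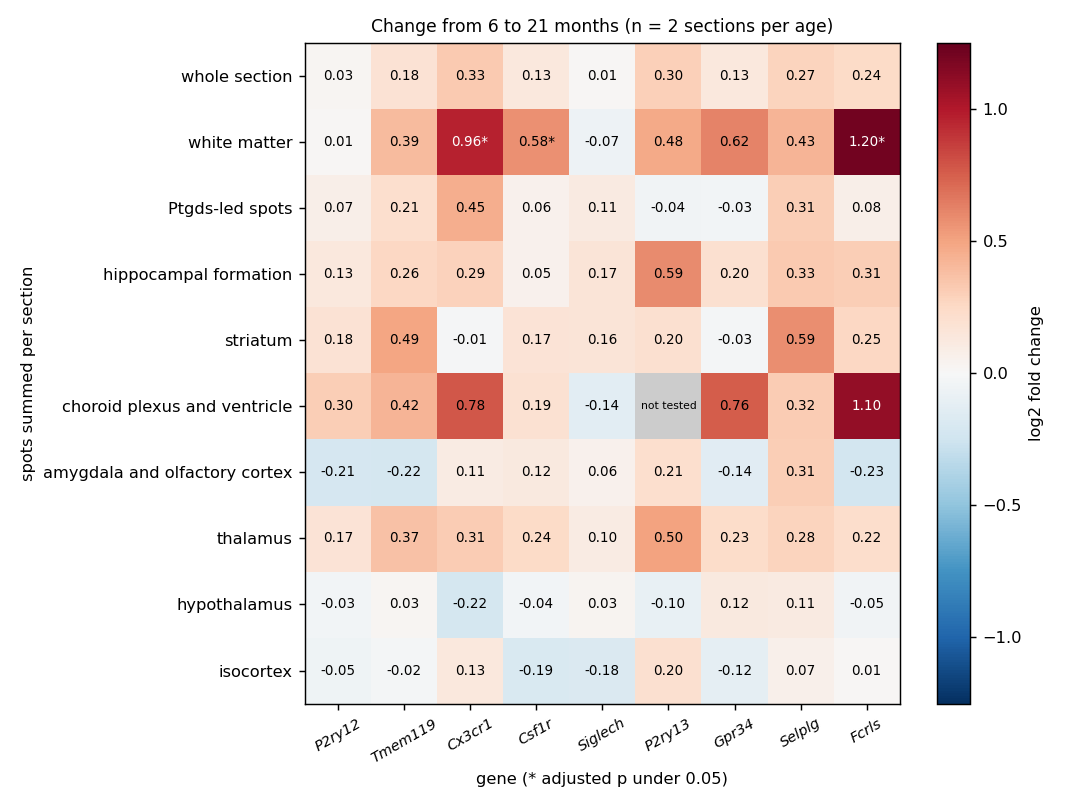
Heat map of edgeR's log2 fold change from 6 to 21 months for each gene in whole sections and in 9 groups of spots (n = 2 sections per age), with an asterisk where the adjusted p was under 0.05. The 3 asterisks are in white matter, on Cx3cr1 (0.96), Csf1r (0.58) and Fcrls (1.204), and P2ry13 had too few UMIs to be tested in the choroid plexus and ventricle.

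In the 8 regions other than white matter, edgeR called 0 members between old and young sections. It called 0.156% of all genes in the isocortex, 0.0225% in the hippocampal formation, 0.0798% in the thalamus, 0.0427% in the hypothalamus, 0.137% in the striatum, 0.0368% in the amygdala and olfactory cortex, 0.0419% in the choroid plexus and ventricle and 0.17% in the Ptgds-led spots. An unadjusted p under 0.05 was reached by 3 members in the thalamus, 2 each in the hippocampal formation and the striatum, 1 each in the isocortex, the choroid plexus and ventricle and the Ptgds-led spots and 0 in the hypothalamus and in the amygdala and olfactory cortex. Of all genes, 1579 of 15430 did so in the isocortex, 1185 of 12431 in the striatum, 700 of 13790 in the thalamus, 526 of 13358 in the hippocampal formation, 816 of 11928 in the choroid plexus and ventricle and 740 of 12970 in the Ptgds-led spots. DESeq2 called 0 members in these regions. Fcrls had its second largest fitted change in the choroid plexus and ventricle, at 1.10 (SE 0.39, edgeR adjusted p = 0.612), resting on 6 to 27 UMIs per section. In the hippocampal formation all 9 fitted changes were above 0, with a median of 0.26. Young 1 contributed 47 hippocampal spots against 161 to 267 in the other sections. Without young 2, which left that section as the only young one, Cx3cr1 and Fcrls were called in the hippocampal formation, Cx3cr1 in the Ptgds-led spots and Selplg in the striatum. In the isocortex 4 of 9 were above 0, with a median of -0.02, and the summed CPM of the 9 genes was 138 and 147 in young, 144 and 140 in middle and 141 and 142 in old sections.

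Other microglial genes were read in the same sums. Of 16 complement C1q and phagocyte genes, 10 were called higher in old against young white matter (1.23% of all genes were), with a median log2 change of 1.14. Among them were Cd52 at 2.04 (SE 0.30), Trem2, a lipid-sensing receptor, at 1.65 (SE 0.13) and Cd68, a lysosomal protein, at 1.63 (SE 0.20). Tyrobp, the signalling partner of Trem2, rose by 1.45 (SE 0.14), from 102 and 120.5 CPM in young to 171 and 213 in middle and 269 and 360 in old white matter. In whole sections 3 of the 16 were called higher (0.0905% of all genes were), Trem2 at 0.82, Tyrobp at 0.71 and Mpeg1 at 0.69.

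Of 20 disease-associated microglia genes 19 were measured and 8 were called higher in old white matter (1.23% of all genes were). Their median was 1.67, with Cst7, a cysteine protease inhibitor, at 5.62 (SE 0.60), Lpl, a lipase, at 1.73 (SE 0.24) and Ctsd, a lysosomal protease, at 1.08 (SE 0.11). Cst7 went from 3 and 2 UMIs in young to 30 and 55 in middle and 94 and 171 in old white matter. In middle against young white matter Trem2 and Tyrobp of the phagocyte list were called higher, at 0.92 and 0.74. Of the disease-associated list, Cst7 and Itgax were called higher there, and Cd9 and Ch25h were called lower. Of all genes, 0.834% were called higher and 1.05% lower in that comparison. Cst7 and Itgax were also the 2 genes of the disease-associated list called higher in whole old sections, against 0.0905% of all genes. Itgax, Cd9 and Ch25h, and Cst7 in whole sections, were chosen for mention after their values were seen.

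Of 27 other microglia and myeloid identity genes 11 were called higher in old white matter (1.23% of all genes were), with a median of 0.75. Nckap1l was at 1.58 (SE 0.25), the myeloid transcription factor Irf8 at 1.52 (SE 0.24) and Csf3r at 1.19 (SE 0.26).

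Of 9 ligands and upstream factors of the members, 8 could be tested in white matter. Only Csf1, a ligand of Csf1r, was called higher in old white matter, where 1.23% of all genes were. Csf1 was at 51.9 and 52.4 CPM in young, 55.3 and 64.0 in middle and 79.7 and 85.3 in old sections, a change of 0.61 (SE 0.11, edgeR adjusted p = 0.00149). Il34, the other ligand of Csf1r, was at 14.5 and 14.3 CPM in young and 11.3 and 14.6 in old white matter, a change of -0.20 (SE 0.21). Cx3cl1, the ligand of Cx3cr1, was at 152 and 178 CPM in young and 156 and 155 in old white matter, a change of -0.14 (SE 0.09, edgeR adjusted p = 0.641). Regionally the ligands were set apart: Csf1 was 2.46 higher in white matter than in the other spots on the log2 scale (SE 0.07), while Il34 and Cx3cl1 were -0.99 and -1.02 lower.

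The summed level of the 9 genes was also set against that of the phagocyte list, as a description. Over regions, Fcer1g, Cd53, C1qa and C1qc of that list went with the summed level of the members (Pearson r from 0.838 to 0.844). The ratio is therefore not read as a measure of microglial state. In white matter the ratio of the summed CPM of the 9 to that of the 16 phagocyte genes was 0.302 and 0.253 in young, 0.234 and 0.2001 in middle and 0.184 and 0.145 in old sections. In whole sections it was 0.376 and 0.377 in young, 0.322 and 0.302 in middle and 0.295 and 0.248 in old sections, and in the isocortex 0.422 and 0.421, 0.369 and 0.353, and 0.366 and 0.326. The ages did not overlap in white matter or in whole sections, and middle and old overlapped in the isocortex. The ratio to the 27 other identity genes moved less, from 0.552 and 0.553 in young through 0.550 and 0.545 in middle to 0.540 and 0.526 in old whole sections. In white matter it was 0.542 and 0.508 in young, 0.505 and 0.476 in middle and 0.489 and 0.444 in old sections, where middle and old overlapped. In the Ptgds-led spots the ratio to the phagocyte genes was 0.367 and 0.419 in young and 0.407 and 0.399 in old sections, which overlapped.

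**Figure D4:**
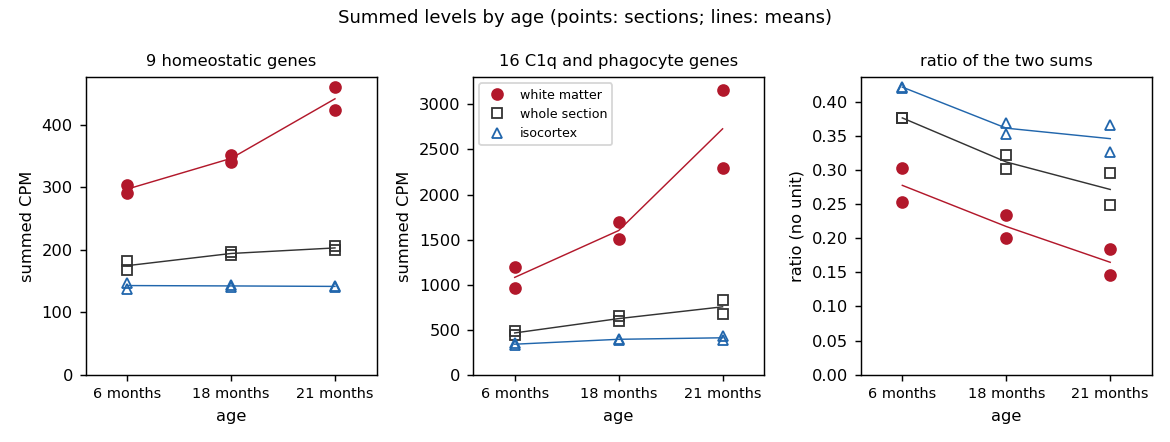
Summed CPM of the 9 homeostatic genes (left), summed CPM of the 16 C1q and phagocyte genes (middle) and the ratio of the sums (right, no unit) at 6, 18 and 21 months, with 1 point per section and lines through the means for white matter, whole sections and isocortex. In white matter both sums are highest in old sections (423 and 460 CPM for the homeostatic genes), while the ratio is lowest there (0.184 and 0.145).

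Markers of other cells were read in the same white matter spots. The 9 genes of border-associated macrophages summed to 20.0 and 14.6 CPM in young, 15.8 and 18.3 in middle and 15.5 and 31.7 in old white matter, where old 2 was the highest and old 1 lay among the younger sections. Of the 9, only 3 had counts enough to be tested and 0 were called. Ms4a7 had 1 and 1 UMIs in young, 5 and 4 in middle and 7 and 16 in old white matter, so its ages did not overlap. For the others the lowest and highest UMIs per section were 39 and 61 for Stab1, 7 and 23 for Mrc1, 6 and 21 for Pf4, 3 and 13 for Cbr2, 2 and 8 for F13a1, 2 and 3 for Folr2, 0 and 6 for Cd163 and 0 and 2 for Lyve1. The monocyte marker Ccr2 had 0 or 1 UMI per section, and no monocyte marker could be tested. Summed markers of astrocytes were 2103 and 2281 CPM in young, 2227 and 2121 in middle and 2590 and 3053 in old white matter, with 1 of 6 called higher (Aldh1l1). Those of oligodendrocytes were 38670 and 41110 CPM in young, 35140 and 29260 in middle and 35930 and 35910 in old white matter, and 0 of 6 were called in old against young and 3 (Mag, Cnp and Mog) lower in middle against young. Of all genes, 1.23% were called higher in old against young white matter and 1.05% lower in middle against young white matter. Neuronal markers were highest in middle sections, at 2120 and 2488 CPM, against 1751 and 1881 in young and 2049 and 1747 in old. The part of these shifts in cell content in the members' changes was not tested. White matter was also redefined as the 0.1 of each section's spots that were richest in myelin transcripts. The same 3 members were then called higher in old sections, but that choice does not hold the content of other cells fixed.

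The genes whose regional pattern was most like the members' were found over 9 regions. Over 54 sums (9 regions in 6 sections, on log2(CPM + 1) centred within sections) and 11537 genes, the genes closest to the summed level of the 9 included Cst3 (Pearson r = 0.885), Laptm5 (0.873), Itgam (0.868), Fcer1g (0.844), Cd53 (0.839), Actb (0.839), C1qa (0.838), C1qc (0.838) and Olfml3 (0.835). The myelin gene Mbp was less alike, at 0.417. Csf1r had the closest partners of any member, Fcer1g at 0.931, C1qa at 0.929 and Laptm5 at 0.927. P2ry12 was closest to Gstm5 (0.892), Gdf10 (0.793) and Actb (0.786), and Fcrls to S1pr1 (0.744), Slc1a3 (0.702) and Slc1a2 (0.698), of which Slc1a3 and Slc1a2 are astrocyte glutamate transporters. Siglech was closest to Pabpc1 (0.735), Malat1 (0.733) and Itgam (0.717). Between members the 36 pairwise r ran from 0.497 to 0.887, with a median of 0.724. These points share sections, spots and depth, so the r are a description only.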

How the data were processed

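The deposited files hold raw counts of UMIs per gene and spot, made by the authors with Space Ranger on mm10 (version 1.3.1 per the file headers, 3.1 per the submitters' processing notes). Spots under 500 UMIs were left out (2 in all, 1 each in middle 2 and old 2). Spots were clustered with scanpy 1.11.5 (2000 variable genes, 30 principal components, 20 neighbours, Leiden 0.8), with 221 genes kept out, and named from markers. Conditions on the first leading gene were added after the clusters were seen. A white matter cluster had to be led by a white matter marker, and clusters led by Ptgds kept that name. UMIs were summed per section and region and tested two-sided with edgeR 4.0.16 (robust quasi-likelihood, TMM, filterByExpr, Benjamini-Hochberg over all genes tested, called at adjusted p under 0.05). Regions were compared with the other spots with the section as a block, and their age changes by an interaction term. Replicate numbers pair middle and old sections by slide, per the labels, and not the young ones (correlations of same-numbered deviations 0.418 for middle and old, 0.266 for young and old, 0.046 for young and middle). Depth was 60938938 to 77557934 UMIs per section. Barcodes are grid positions, so sections share 2082 to 2826 of them. On simulated counts for old against young, log2 changes of 1 were recovered for 87% of 200 genes in whole sections (17635 genes) and 77.2% in white matter (13195 genes). The simulation used 1 fixed dispersion for all genes and changed only genes above a minimum total count. Recovery of changes smaller than 1, as most members had, was not simulated. The members and lists were chosen with earlier results of these data known. Named were all members and, from each related list and comparison, at most 3 called genes per direction by size of change with a mean of at least 5 CPM, besides Trem2, Tyrobp, Cx3cl1, Csf1 and Il34. Some results that fall under this rule are not reported here. The alternatives tried were DESeq2 1.42.0, other filters, scalings, depths, region definitions and blocks, and leaving out each section.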

Additional observations from a re-analysis of the deposited data

Results flagged for a closer look

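In 4 cases the old against young change of a member differed between a region and the remaining spots, each by the interaction term of edgeR's quasi-likelihood fit with Benjamini-Hochberg adjustment. In white matter the change was larger for Fcrls by 1.07 on the log2 scale (adjusted p = 0.0002877), for Cx3cr1 by 0.73 (adjusted p = 0.00393) and for Csf1r by 0.54 (adjusted p = 0.00156). Without old 2 these were 0.75, 0.71 and 0.45 and none passed. In the isocortex the change of Csf1r was lower by -0.39 (adjusted p = 0.0375). The Csf1r differences are 2 sides of 1 table, since white matter is among the spots that the isocortex was compared with.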

How the results depend on the processing

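With 2 sections per age, slide could not be separated fully from age, nor could depth in whole sections, where both old sections were the shallowest. In white matter the UMIs summed to 4703669 and 4674094 in young, 5247736 and 4858774 in middle and 4592447 and 4726322 in old sections. Old and young totals overlapped there. The count of members called was 0 in whole old against young sections and 1 without young 2 (0 to 1 over the 6 fits that left out a section). In old against young white matter it was 3, 5 with no filter on low counts (Gpr34 0.62 and Selplg 0.42 added), and 2 to 4 leaving out 1 section. In old against middle white matter it was 2, 3 with no filter, with only the sections compared or with the replicate block, 0 with DESeq2 (which gave Fcrls no adjusted p), 1 with Leiden 0.5, Leiden 1.2, DESeq2's size factors in edgeR, the newer quasi-dispersion, genes scaled over all sections or thinning, and 0 to 3 leaving out 1 section. In the 8 other regions it was 0, 1 with no filter, and 0 to 4 leaving out 1 section. For the difference between white matter and the other spots it was 3, 1 with DESeq2, and 0 to 4 leaving out 1 section. Members higher in white matter numbered 8 to 9, and 9 were lower in the isocortex in every fit run. No amygdala and olfactory cortex cluster formed with Leiden 0.5 or with genes scaled over all sections, so no count over the 8 other regions is given there.

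Of 504 alternatives for the log2 changes of single members (old against young in whole sections and white matter, middle against young in white matter), 468 kept their direction and side of the threshold, 1 lost its call, 5 gained one and 30 changed sign, and the cause was not tested. Siglech in whole old against young sections (0.01) was -0.0551 with equal spots and -0.0111 after thinning, and -0.10 to 0.12 leaving out 1 section. In old against young white matter P2ry12 (0.01) was -0.0422 with Leiden 0.5, -0.028 with Leiden 1.2, -0.0285 with genes scaled over all sections, -0.0592 with the larger white matter cluster alone (chosen after seeing the data) and -0.0008 with the myelin-rich 0.1 of spots, and -0.0545 to 0.0598 leaving out 1 section. Siglech there (-0.07) was 0.14 with slide as a block and -0.34 to 0.16 leaving out 1 section. In middle against young white matter P2ry12 (-0.02) was 0.0271 with Leiden 0.5, 0.0076 with Leiden 1.2, 0.0172 with the larger cluster and 0.0022 after thinning, and -0.0797 to 0.0424 leaving out 1 section. Fcrls there (-0.002) was 0.19 with Leiden 0.5, 0.0214 with Leiden 1.2, 0.0006 with a minimum of 10 counts, 0.14 with genes scaled over all sections, 0.0002 with no filter, 0.27 with the larger cluster and 0.25 with the myelin-rich 0.1 of spots, and -0.0844 to 0.083 leaving out 1 section. Siglech and P2ry13 there ran from -0.0824 to 0.3336 and from -0.0541 to 0.38 leaving out 1 section.

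Replicate numbers marked a shared slide for middle and old only. With the replicate block, 3 members were called in old against young white matter, 3 in old against middle white matter and 0 in whole old against young sections. Over all genes that block gave 79 calls against 27 in old against middle white matter. Counts over all genes moved by more than 1.5 times as follows. In whole old against young sections 29 became 194 with DESeq2, 113 with no filter, 49 with equal spots, 7 with slide as a block, 7 with only the sections compared, and 6 to 75 leaving out 1 section. In whole middle against young sections 12 became 70 with DESeq2, 58 with no filter, 31 with equal spots, 6 with a minimum of 10 counts, 3 with slide as a block, and 1 to 33 leaving out 1 section. In whole old against middle sections 0 became 1 without old 1. In old against young white matter 227 became 113 with DESeq2, 428 with no filter, 143 with slide as a block, 453 with the myelin-rich 0.1 of spots and 105 without old 2. In middle against young white matter 248 became 97 with DESeq2, 573 with no filter, 90 with slide as a block, 495 with Leiden 1.2, 155 with genes scaled over all sections, 1466 with the myelin-rich 0.1 of spots, 14 without middle 2, 121 without young 1 and 124 without young 2. In old against middle white matter 27 became 15 with DESeq2, 187 with no filter, 60 with slide as a block, 62 with only the sections compared, 47 with Leiden 0.5, 158 with the myelin-rich 0.1 of spots, 67 with the larger cluster, and 5 to 139 leaving out 1 section. For the difference between white matter and the other spots 128 became 41 with DESeq2, 214 with no filter, 79 with a minimum of 10 counts, 69 with the newer quasi-dispersion, 225 with Leiden 0.5, 467 with the myelin-rich 0.1 of spots, 275 with the larger cluster, and 50 to 200 leaving out 1 section.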
